A study of Mus musculus with 4 samples.

Results

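Oviduct-type epithelial cells were 292 of the 30523 cells that held at least 1000 UMIs (unique molecular identifiers, each counting 1 captured transcript) and at most 20% mitochondrial UMIs, out of 33639 deposited cell barcodes. A cell was taken as a member when it held at least 1 UMI of Epcam, at least 1 UMI of Pax8 or Foxj1 or at least 5 UMIs of Ovgp1, and no UMI of Upk3b, Ptprc, Pecam1 or Fshr. Members were split by Foxj1 into 146 positive cells with at least 1 UMI and 146 negative cells with none. The cells were thus chosen by the measured counts of Epcam, Pax8, Foxj1, Ovgp1 and the 4 excluded genes, whose levels are given as descriptions.

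The study asked how doxorubicin, an anthracycline chemotherapy drug, and anti-Müllerian hormone (AMH) affect the ovary of the prepubertal mouse. Treatment began at postnatal day 25, with 2 weekly doses of doxorubicin at 3 mg/kg, recombinant human AMH at 0.75 mg/kg, or both, and ovaries were taken 4 hours after the second dose of doxorubicin. The control group received PBS or saline. Cells were measured by 10x Genomics 3′ single-cell RNA sequencing, with 1 ovary from each of 5 mice pooled into 1 library per group, so the data hold no replicate of any group and no test between groups was possible. Every interval given here is a 95% interval that covers counting error only, and no spread between animals could be measured.

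The oviduct carries the egg and the early embryo, and its lining holds mostly multiciliated cells, whose beating cilia move fluid and egg, and secretory cells, which make the oviduct fluid. Epcam encodes an adhesion protein of epithelial cells, Pax8 a transcription factor of Müllerian duct epithelium, Ovgp1 the oviduct-specific glycoprotein, and Foxj1 the transcription factor that turns on the genes of motile cilia. A motile cilium is built on an axoneme of microtubule doublets with dynein arms as motors and with radial spokes and a central pair of microtubules that shape the beat. AMH made by the male fetal gonad causes the Müllerian ducts to regress, and in females the ducts form the oviduct, uterus and upper vagina. The tissue in the labels is ovary, and neither the anatomical position of these cells nor any piece of oviduct left on the ovary is stated in the sources used here.

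Several promoters of genes with the highest ratio of Foxj1-positive over Foxj1-negative cells held a short shared string, so stretches of 4 of them and of Ccno are printed here. Each stretch lies before the RefSeq transcription start in GRCm38.p6 and reads 5′ to 3′ on the gene's own strand, with capitals for a match to GTTGCC or its reverse complement, part of the binding motif of RFX transcription factors, or to the 14-letter palindromic RFX motif, the X-box. Ccdc153 is from chr9:44240487-44240566 on the plus strand, 190 to 111 bases before its start. Fam183b is from chr11:58801961-58802040 on the minus strand, 80 to 1 bases before its start, and holds 2 matches. Sntn is from chr14:13670772-13670851 on the plus strand, 104 to 25 bases before its start. Dmkn is from chr7:30763506-30763585 on the plus strand, 250 to 171 bases before its start, with the match on the opposite strand. Ccno, a gene of basal body multiplication, is from chr13:112987553-112987632 on the plus strand, 249 to 170 bases before its start, and its capitals match both motifs at once.
Ccdc153: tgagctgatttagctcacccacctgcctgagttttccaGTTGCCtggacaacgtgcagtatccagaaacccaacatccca
Fam183b: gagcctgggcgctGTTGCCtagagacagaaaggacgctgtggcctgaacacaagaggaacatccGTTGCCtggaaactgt
Sntn: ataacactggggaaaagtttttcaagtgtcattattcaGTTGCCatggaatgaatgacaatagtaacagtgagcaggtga
Dmkn: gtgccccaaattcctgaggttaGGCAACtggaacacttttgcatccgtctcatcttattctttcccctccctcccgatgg
Ccno: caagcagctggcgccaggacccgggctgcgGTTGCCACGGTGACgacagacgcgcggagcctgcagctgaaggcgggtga

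The members were found in unequal numbers in the 4 libraries. The control library held 121 members among 8588 cells within the limits, a share of 1.41% (exact Clopper-Pearson interval 1.17 to 1.68%). The AMH library held 147 of 8546 (1.72%, 1.46 to 2.02%). The doxorubicin+AMH library held 23 of 6983 (0.329%, 0.209 to 0.494%), and the doxorubicin library held 1 of 6406 (0.0156%, 0.000395 to 0.0869%). Both libraries with doxorubicin were thus below both libraries without it, with intervals that do not overlap. With 1 pooled library per group, the treatment cannot be told apart from how much of this epithelium was left on the dissected ovaries or survived the enzymatic dissociation.

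Foxj1-positive cells were 64 of 121 in control (52.9%, 43.6 to 62.0%), 11 of 23 in doxorubicin+AMH (47.8%, 26.8 to 69.4%) and 70 of 147 in AMH (47.6%, 39.3 to 56.0%), and the 1 doxorubicin member was Foxj1-positive. The intervals of these 3 shares overlap. When every member was thinned to 2000 UMIs, leaving out 4 control and 6 AMH cells with fewer, the shares were 26.5%, 26.1% and 22.0%. Foxj1-positive cells held 1 to 80 Foxj1 UMIs with a median of 8 in control, 1 to 19 with a median of 9 in doxorubicin+AMH, and 1 to 71 with a median of 7 in AMH. Pax8 was detected in 33 of 64, 3 of 11 and 45 of 70 of them, and in 42 of 57, 10 of 12 and 50 of 77 Foxj1-negative cells, so the Pax8 and Foxj1 routes overlapped within single cells. A single Foxj1 UMI can be background. Fshr-positive cells hold the receptor for follicle-stimulating hormone of granulosa cells and should lack Foxj1. A Foxj1 UMI was found in 3.05% of 1113 in control, 2.94% of 918 in doxorubicin, 3.16% of 1203 in doxorubicin+AMH and 5.40% of 1260 in AMH. The Fshr-positive cells had median depths of 23950, 26393, 23651 and 19226.5 UMIs. In AMH, 68 of them held 413 Foxj1 UMIs, against 37 UMIs in 34 control cells, so the AMH share is not made of single UMIs. Ovgp1 was found more widely, with at least 1 UMI in 24.9%, 14.5%, 14.2% and 24.9% of the Fshr-positive cells. Of these cells, 0.988%, 0, 0.0831% and 1.75% held 5 or more UMIs.

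**Figure D1:**
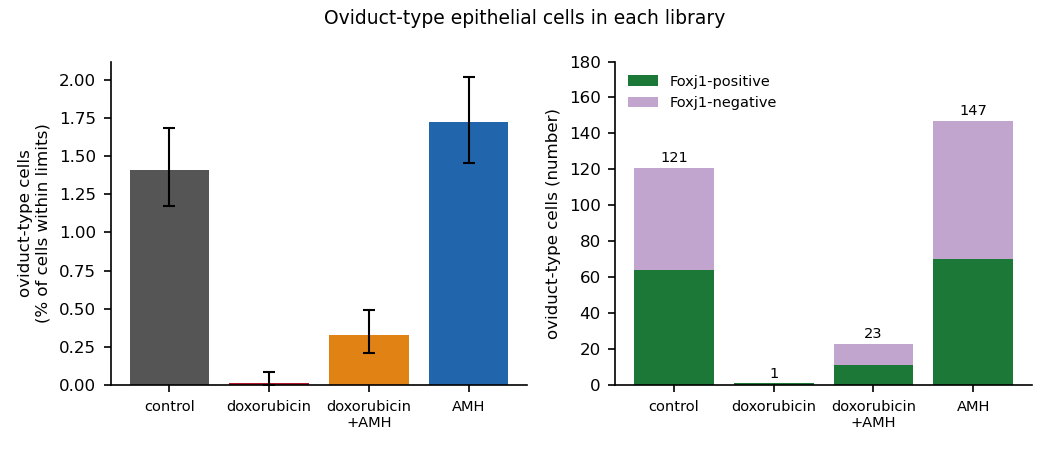
Oviduct-type members in each of the 4 libraries, as a share of all cells within the limits (exact 95% interval, counting error only) and as numbers of Foxj1-positive and Foxj1-negative cells. Control (121 cells) and AMH (147) stand above doxorubicin+AMH (23) and doxorubicin (1).

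The members were deep cells. Their median was 23415 UMIs in control, 21769 in doxorubicin+AMH and 22716 in AMH, against 13722, 12705 and 11266.5 for all cells within the limits. The single doxorubicin member held 29534 UMIs. Summed over members, the counts behind the levels below were 3533767 UMIs in control, 762537 in doxorubicin+AMH and 4308216 in AMH. Of the doxorubicin+AMH total, 193635 UMIs came from 1 Foxj1-positive cell, which makes up 45.7% of the Foxj1-positive sum of that library and 25.4% of the sum over its members. It had no Ovgp1 UMI, and leaving it out raises the Foxj1-positive level of every gene absent from it, so levels without it are given for the main genes. In addition, 2 control and 4 AMH members also held more than 100000 UMIs. The 4 libraries held 7141 to 9478 barcodes each, and any pair of them shared 11 to 24 barcode sequences.

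Of the 3 routes into the rule, 75 control, 13 doxorubicin+AMH and 95 AMH members passed by Pax8, 97, 10 and 123 by Ovgp1, and 64, 11 and 70 by Foxj1. All 3 routes were met by 31, 3 and 40 cells. The threshold of 5 Ovgp1 UMIs had few cells at its edge among cells with no Pax8 or Foxj1 UMI. Of these, 5 members, all in AMH, held exactly 5, while 2 control and 1 AMH cell that met every other condition held 4. At the other edge, 28 AMH members, 6 in doxorubicin+AMH and 8 in control held exactly 1 Epcam UMI, against a median of 10, 8 and 17 over all members. The exclusion genes removed 79 control, 14 doxorubicin, 16 doxorubicin+AMH and 92 AMH cells that met the other conditions. Of these, 24, 2, 2 and 28 held at most 1 UMI of each excluded gene. In the doxorubicin library 15 cells met the Epcam and marker conditions before this exclusion, against 200 in control, 39 in doxorubicin+AMH and 239 in AMH, so the order of the libraries was the same on either side of it.

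The label was checked on 6 epithelial genes that the rule did not use: the keratins Krt8, Krt18 and Krt19, the adhesion protein Cdh1 and the tight-junction proteins Cldn3 and Cldn7. At least 3 of the 6 were detected in 116 of 121 control members (95.9%), 20 of 23 doxorubicin+AMH members (87.0%), 129 of 147 AMH members (87.8%) and the doxorubicin cell. The same was found in 1.89%, 0.748%, 2.86% and 1.53% of Fshr-positive cells of those libraries. Upk1b, Lrrn4 and Gpm6a, genes of the ovarian surface, were near 0 in the members and at 216, 64.9 and 329 CPM (CPM, the UMIs of a gene scaled to 1000000 UMIs of the summed cells) in Upk3b-positive control cells. The 6-gene check was not run on Upk3b-positive cells, so it does not set members apart from them. Their summed junction and keratin list was at 2288 CPM in control and 1220 in AMH, against 3594 and 3602 CPM in members. Their list of secretory genes without Ovgp1 was at 1619 and 2020 CPM, against 1674 and 1481 CPM in members. Over all genes past the filter, 12.4% were at least 2-fold higher and 10.2% lower in members than in Upk3b-positive cells of the control library, and 12.5% and 10.9% in those of the AMH library, a difference that the rule itself used. Members with a single Epcam UMI were less uniform: 5 of 8 in control, 3 of 6 in doxorubicin+AMH and 14 of 28 in AMH passed this check. Their granulosa marker list also stood higher, with a median of 224, 1102 and 608 CPM, against 62.1, 121 and 148 CPM in members with more Epcam. The part of such cells in the results below was not tested. Without them were repeated only the shares, the cilia list ratios, the counts of genes, the BMP/SMAD and p53 medians and the ratios of named genes.

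Within the Foxj1-positive cells, transcripts of motile cilia took a variable share. The 74 genes of 4 lists (dynein arms, dynein arm assembly, radial spokes with the central pair, and doublet and other axoneme genes) together made up a median of 2.62% of a cell's UMIs in control, 2.04% in doxorubicin+AMH and 1.59% in AMH. In the Foxj1-negative cells the medians were 0.0402%, 0.0312% and 0.0438%. The medians of Fshr-positive cells were 0.0732%, 0.0656% and 0.0692% in these libraries, so those of the Foxj1-negative members were no higher than in cells of another type.

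The Foxj1-positive cells fell on both sides of a cilia share of 0.3%, a value set after the shares were seen. At or above it were 47 of 64 control cells (73.4%), 7 of 11 doxorubicin+AMH cells (63.6%), 50 of 70 AMH cells (71.4%) and the doxorubicin cell at 1.04%. Between 0.1 and 0.3% there were 5, 4 and 12 members. Of the Foxj1-negative cells, none of 57 in control, none of 12 in doxorubicin+AMH and 2 of 77 in AMH were at or above 0.3%, the highest at 3.75%. The position followed the Foxj1 count: with 6 or more Foxj1 UMIs, 40 of 42 control, 6 of 7 doxorubicin+AMH and 41 of 41 AMH cells were above 0.3%, with medians of 3.47%, 3.49% and 2.16%. With 1 or 2 Foxj1 UMIs the counts were 4 of 15, 1 of 4 and 6 of 26, with medians of 0.0649%, 0.159% and 0.0460%. A Foxj1-positive cell with 1 or 2 UMIs was therefore mostly without a high cilia share, and each library's Foxj1-positive sum mixes both kinds of cell.

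**Figure D2:**
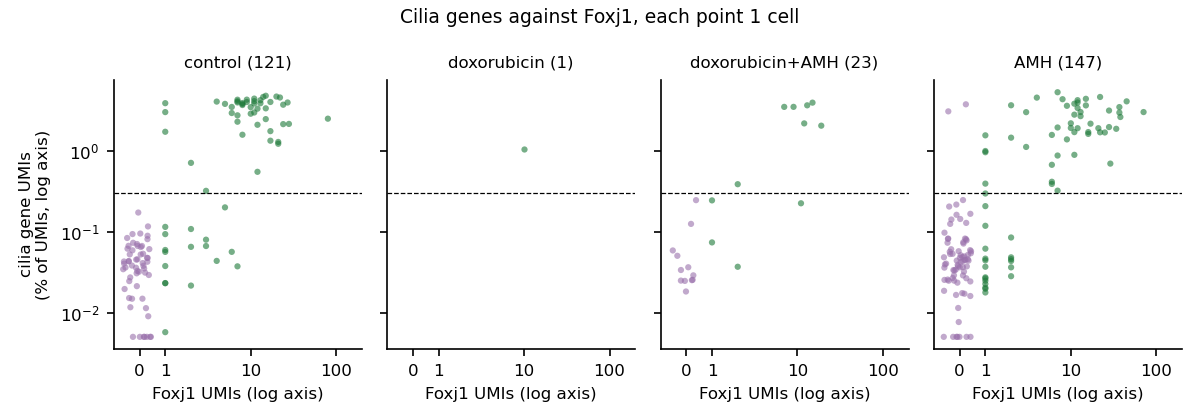
Share of each member's UMIs in the 74 cilia structure genes (log axis, 0 drawn at 0.005%) against its Foxj1 UMIs (log axis, cells at 0 spread sideways), by library, with Foxj1-positive cells in green and Foxj1-negative cells in purple. The dashed line is 0.3%, and 40 of 42 control and 41 of 41 AMH cells with 6 or more Foxj1 UMIs lie above it.

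Summed over cells, the cilia lists were at 14250 CPM in Foxj1-positive control cells, 9087 in doxorubicin+AMH and 12869 in AMH, against 448, 343 and 676 CPM in Foxj1-negative cells. Without the cells over 100000 UMIs, the doxorubicin+AMH sum in Foxj1-positive cells was 14841 CPM. The 1 such cell of that library had a cilia share of 0.224%. Of the 74 genes, 66 passed a mean of 20 CPM over the Foxj1-positive and Foxj1-negative sums. At least 2-fold higher in Foxj1-positive cells were 66 of these in control (background: 9.96% of the 7227 genes that passed), 62 in doxorubicin+AMH (18.7%) and 65 in AMH (8.86%). The median log2 ratio was 3.93, 3.90 and 3.59, beside 0.07, 0.08 and -0.01 over all genes. These genes passed the filter through the Foxj1-positive cells, in which they are high, and Foxj1 itself made the split, so the counts are a description and not a test. All ratios are on the scale of log2(CPM + 5), which understates the difference for genes with low counts.

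Without its deep cell, Foxj1-positive doxorubicin+AMH levels were also higher for single cilia genes, among them Dnah12 (391 CPM), Dynlrb2 (668 CPM), Spag17 (234 CPM), Sntn (408 CPM), Tmem212 (1281 CPM) and Ccdc153 (916 CPM), whose levels with it follow.

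The motors of the cilium were low or at 0 in Foxj1-negative cells. Dynein arm genes had median log2 ratios of 4.73, 3.83 and 3.66 in control, doxorubicin+AMH and AMH, with 15 of 16 past the filter. Dnah5, a heavy chain of the outer arm, was at 628, 328 and 461 CPM in Foxj1-positive cells, and at 0, 0 and 10.9 CPM in Foxj1-negative cells. Dnah12, an inner-arm heavy chain, was at 739, 245 and 607 CPM against 0, 5.91 and 15.8 CPM. Dynlrb2, a light chain of the roadblock family, was at 485, 375 and 502 CPM against 1.46, 0 and 8.52 CPM (log2 ratios 6.24, 6.25 and 5.23). The AMH library gave the highest level in Foxj1-negative cells for each of the 3. Dnal1, a light chain, had the smallest ratio of the list in doxorubicin+AMH (0.89). Of the 9 genes of dynein arm assembly only 4 passed the filter, with medians of 3.04, 3.00 and 2.57, and Pih1d3 had no UMI in any member.

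All 15 radial spoke and central pair genes passed the filter, with medians of 4.04, 3.88 and 3.88. At least 2-fold higher were 15 in control, 12 in doxorubicin+AMH and 14 in AMH. Spag17, a central pair protein, was at 290, 151 and 233 CPM in Foxj1-positive cells against 2.20, 0 and 2.43 CPM. The exceptions were Rsph9, Ccdc65 and Gas8 in doxorubicin+AMH and Gas8 (log2 ratio 0.74) in AMH, where Gas8 encodes a subunit of the nexin-dynein regulatory complex. The 32 of 34 doublet and other axoneme genes that passed were all at least 2-fold higher in each of the 3 libraries, with medians of 3.86, 3.98 and 3.56.

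Ccdc153, on chromosome 9 at 44240676 to 44247306 (plus strand, GENCODE M21 on GRCm38), followed Foxj1 at the top of the ratios. It was at 770 CPM in Foxj1-positive and 8.78 CPM in Foxj1-negative control cells, 559 and 2.95 CPM in doxorubicin+AMH, and 679 and 12.8 CPM in AMH (log2 ratios 5.81, 6.15 and 5.27). It was detected in 48 of 64, 8 of 11 and 52 of 70 Foxj1-positive cells, and in 7 of 57, 1 of 12 and 14 of 77 Foxj1-negative cells. In Fshr-positive cells it was found in 1.89% in control, 0.249% in doxorubicin+AMH and 4.60% in AMH, and in 0 of 918 in doxorubicin, where 3 cells would make 0.327%. The Fshr-positive share in AMH is not made of single UMIs, with 895 Ccdc153 UMIs in 58 cells, against 21 UMIs in 21 control cells. The Foxj1-negative shares were above the Fshr-positive shares in control and AMH, while the doxorubicin+AMH share rests on 1 cell.

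Sntn, the gene of sentan at the tip of the cilium, was at 330, 238 and 336 CPM in Foxj1-positive cells and at 3.66, 0 and 4.87 CPM in Foxj1-negative cells. Tmem212, a transmembrane protein gene, was at 921, 736 and 787 CPM against 3.66, 0 and 26.2 CPM (log2 ratios 6.74, 7.21 and 4.67). In AMH the Foxj1-negative level of Tmem212 was several times that of control, with the 2 cells above a cilia share of 0.3% among the Foxj1-negative cells of that library. Fam183b and Cfap299 had the same pattern, at 342 and 475 CPM in Foxj1-positive control cells against 1.46 and 8.78 CPM. The rest of the 15 highest were Dmkn, 1110017D15Rik, Cfap44, Agbl4 and Dnali1. The ratio of 1110017D15Rik closest to 0 went from 4.57 to 2.46 when Foxj1-positive cells needed 2 Foxj1 UMIs. Spag17, Cfap299, Tmem212, Agbl4 and Dnali1 overlap other annotated genes, each at least 1 on the opposite strand, and the strand setting of the counting is not given in the sources used here. Over the 3 libraries, 457 genes (6.32%) were at least 2-fold higher in Foxj1-positive cells in each.

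**Figure D3:**
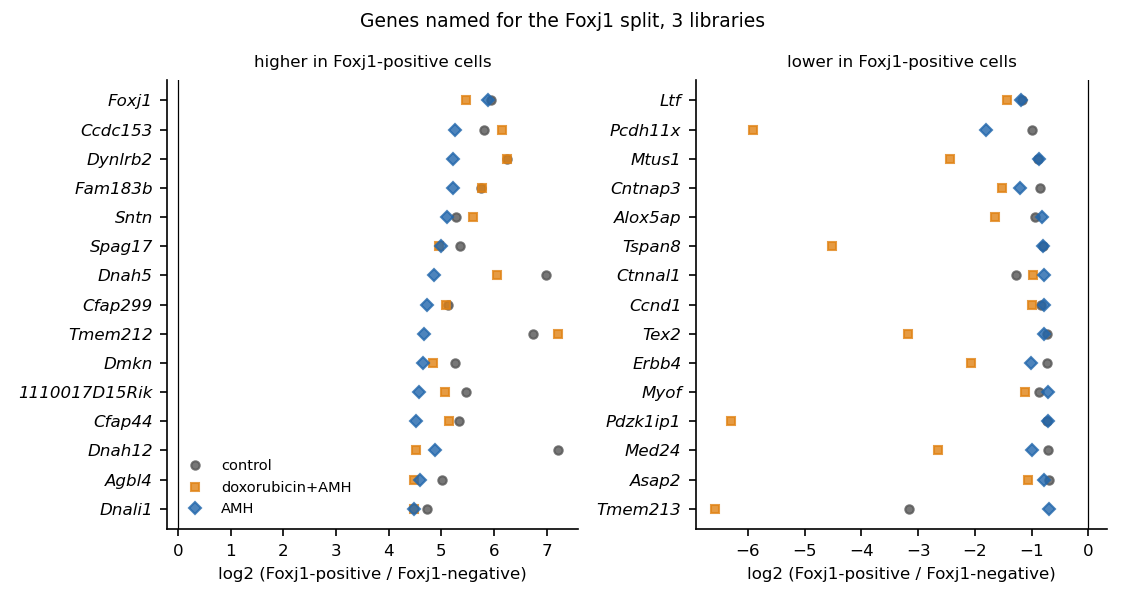
Log2 ratio of Foxj1-positive over Foxj1-negative cells (log2(CPM + 5)) for the genes with the highest and lowest ratios, with 1 point for each of control, doxorubicin+AMH and AMH. With 1 Foxj1 UMI as the minimum, the higher genes exceed 4 in each library, and for 14 of the 15 lower genes doxorubicin+AMH lies farthest from 0.

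The regulators of ciliation split into those in most Foxj1-positive sums and those in a few cells. Rfx2 and Rfx3, RFX factors that act with Foxj1 on cilia genes, were at 70.6, 73.1 and 77.3 CPM and at 209, 146 and 181 CPM in Foxj1-positive cells of control, doxorubicin+AMH and AMH. In Foxj1-negative cells they were at 5.86, 5.91 and 9.73 CPM and at 26.4, 26.6 and 26.8 CPM. Myb, which acts early in multiciliated cells, was at 55.4 against 6.59 CPM in control and 66.8 against 5.47 CPM in AMH, but at 56.6 against 53.2 CPM in doxorubicin+AMH. Ccdc78, a protein of basal body multiplication, was at 108 against 0.73 CPM, 47.2 against 0 CPM and 85.6 against 1.22 CPM. Without the deep cell the Foxj1-positive doxorubicin+AMH levels of Rfx2 and Ccdc78 were 113 and 82.5 CPM. Trp73, encoding the p53 relative p73, was at 25.4, 4.72 and 26.3 CPM in Foxj1-positive cells and at 0, 2.95 and 0 CPM in Foxj1-negative cells. Gmnc, which starts the multiciliated program, was at 7.38, 9.43 and 10.1 CPM and had no UMI in Foxj1-negative cells.

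Most UMIs of Cdc20b and Mcidas lay in 4 cells of the AMH library, while Deup1 and Ccno were also in other members. Mcidas and Ccno, which drive centriole multiplication, Deup1, which forms the deuterosome on which centrioles are made, and Cdc20b, a deuterosome protein, were at least 3 of 4 together in these 4 cells and in no control or doxorubicin+AMH member. The 4 cells held 46, 43, 40 and 29 UMIs of Cdc20b, which is 158 of the 160 Cdc20b UMIs of all AMH members. They also held 88 of 118 Deup1, 43 of 45 Mcidas and 33 of 48 Ccno UMIs. Their Foxj1 counts were 21, 10, 7 and 22 UMIs, and their cilia shares were between 0.873% and 1.91%, below the median of 2.16% for AMH cells with 6 or more Foxj1 UMIs. Top2a, a topoisomerase used in cell division, had 16, 6, 9 and 3 UMIs in them, and Mki67 had 1, 1, 0 and 0. Outside these cells the genes were found at low counts: Deup1 had 30 UMIs in 19 of 64 Foxj1-positive control cells, with 13.3% in the highest cell, and 27 UMIs in 16 of the other 66 Foxj1-positive AMH cells. Ccno was in 4 of 64 and in 9 of these 66. Cells with 2 of the 4 genes numbered 3 in control and 7 in AMH. Ccno, Mcidas and Cdc20b are neighbours on chromosome 13 (starts at 112987802, 112993845 and 113035111, plus strand), and Cdc20b overlaps 6 annotated genes, 3 of them on its own strand.

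RefSeq promoter windows of 300 bases, from 250 before to 50 after the start, were searched on both strands for 3 motifs. GTTGCC was found in 6 of 13 windows of the 15 highest genes (46.2%), in 28 of 60 windows of the 4 cilia lists (46.7%) and in 6 of 10 windows of the regulators (60%), beside 12.7% of all 27025 windows. The 14-letter X-box palindrome, which keeps its form on the reverse strand and can contain GTTGCC, was found in 0, 7 (11.7%) and 3 (30%), beside 1.89% of all. TGTTTAC, a forkhead motif of the family to which Foxj1 belongs, was found in 1 (7.69%), 4 (6.67%) and 1 (10%), beside 3.55% of all. Among the 15 genes with the lowest ratios, 3 of 9 windows (33.3%) held GTTGCC. The windows of Spag17, Dnah5, Tmem212, 1110017D15Rik, Dnah12, Agbl4 and Dnali1 held none of the 3 strings, and neither did those of Ovgp1, Pax8 and Epcam. A match is a run of letters and no evidence that a factor binds there.

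Of genes outside the cilia lists, 3 are given as examples chosen after their values were seen. Tubb4b, a beta-tubulin of the axoneme, was at 685, 743 and 806 CPM in Foxj1-positive cells of control, doxorubicin+AMH and AMH, against 146, 82.7 and 167 CPM. Without the deep cell its Foxj1-positive doxorubicin+AMH level was 1241 CPM, then the highest of the 3 libraries. Tuba1a, an alpha-tubulin, was at 613, 552 and 551 CPM against 67.3, 35.5 and 105 CPM. Hsp90aa1, the inducible cytosolic HSP90 chaperone, was at 2035, 1337 and 2031 CPM against 338, 434 and 389 CPM (log2 ratios 2.57, 1.61 and 2.37). Without the deep cell the Foxj1-positive doxorubicin+AMH levels were 820 CPM for Tuba1a and 1984 CPM for Hsp90aa1. A median Foxj1-positive cell held 60.5, 56 and 54 Hsp90aa1 UMIs, and a median Foxj1-negative cell 6, 10 and 6. The ratios of Hsp90aa1 are the highest of the dissociation stress list in control and AMH. Of that list, 11 genes were above 0 and 8 below in control (median 0.06, beside 0.07 over all genes), and 12 and 7 in AMH. In doxorubicin+AMH 15 were above 0 and 4 below (median 0.63, beside 0.08 over all genes).

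The other direction was small in control, in AMH and in the 3 libraries at once, but not in doxorubicin+AMH. Genes at least 2-fold lower in Foxj1-positive cells numbered 79 in control (1.09%), 821 in doxorubicin+AMH (11.4%) and 79 in AMH (1.09%), and 3 (0.0415%) in each of the 3. The 17 control, 4 doxorubicin+AMH and 20 AMH Foxj1-positive cells without a high cilia share held 966165, 286094 and 1032619 UMIs. The whole Foxj1-positive sums were 2167548, 424008 and 2664140 UMIs. The part of these cells in the counts of lower genes was not tested. Ltf, the gene of lactotransferrin, an iron-binding secreted protein, was at 117, 104 and 104 CPM in Foxj1-positive cells and at 269, 290 and 244 CPM in Foxj1-negative cells (log2 ratios -1.17, -1.44 and -1.19). Among Foxj1-positive cells, those with a high cilia share held Ltf at 79.1 CPM in control, 261 in doxorubicin+AMH and 90.1 in AMH. Those without held it at 164, 28.0 and 126 CPM. Without the cells with the highest doublet scores the ratio of Ltf closest to 0 was -0.73, -0.50 when each cell had the same weight and -0.59 without the cells over 100000 UMIs. Mtus1, a microtubule-associated protein, was at 107.5, 66.0 and 99.1 CPM against 204, 381 and 185 CPM. Ccnd1, encoding cyclin D1, was at 146, 54.2 and 212 CPM against 266, 112 and 369 CPM, and its ratio closest to 0 went from -0.78 to -0.22 without the cells over 100000 UMIs. Erbb4, a receptor tyrosine kinase, was at 51.2, 18.9 and 34.2 CPM against 87.8, 94.5 and 73.6 CPM, and its Foxj1-positive doxorubicin+AMH level was 34.7 CPM without the deep cell. The ratios of Ctnnal1 and Tspan8, also among the 15 lowest, came to -0.02 and -0.15 without the cells with the highest doublet scores. The rest of the 15 were Pcdh11x, Cntnap3, Alox5ap, Tex2, Myof, Pdzk1ip1, Med24, Asap2 and Tmem213. Of the 15, Pcdh11x, Mtus1, Alox5ap, Tspan8, Ccnd1, Erbb4, Med24, Asap2 and Tmem213 overlap other annotated genes.

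Ovgp1 and most secretory genes were in both kinds of cell. Ovgp1, which the rule used, was at 6616 and 9161 CPM in Foxj1-positive and Foxj1-negative control cells, at 979 and 3784 CPM in doxorubicin+AMH, and at 5842 and 6659 CPM in AMH. Without the deep cell the Foxj1-positive doxorubicin+AMH level was 1801 CPM. It was detected in 49 of 64 and 56 of 57 control cells, 5 of 11 and 8 of 12 doxorubicin+AMH cells, and 62 of 70 and 75 of 77 AMH cells. Cells with a cilia share of at least 0.3% kept Ovgp1 UMIs in 33 of 47, 3 of 7 and 45 of 52, with medians of 6, 0 and 49 UMIs, against medians of 167, 28.5 and 111 UMIs in the cells below. The control cells with a high cilia share were also shallower, at a median of 18241 against 28670 UMIs, while in AMH they were deeper, at 24539 against 18826 UMIs.

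Of 13 other secretory genes 8 passed the filter, with median log2 ratios of -0.31 in control, -1.90 in doxorubicin+AMH and -0.64 in AMH. Sox17, a transcription factor of the duct epithelium, was at 105 CPM in both kinds of control cell, and at 78.1 and 128 CPM in Foxj1-positive and Foxj1-negative AMH cells. Lcn2, encoding the antimicrobial protein lipocalin 2, was at 134 and 668 CPM in control, 432 and 653 CPM in doxorubicin+AMH and 195 and 352 CPM in AMH. Wfdc2, encoding a secreted protease inhibitor-like protein, was at 319 and 408 CPM in control and 213 and 457 CPM in AMH, but at 84.9 and 2620 CPM in doxorubicin+AMH. Cd24a, a cell-surface glycoprotein, went the other way in control (543 and 258 CPM) and AMH (499 and 227 CPM), and was at 425 and 470 CPM in doxorubicin+AMH. Of the 8 genes, 3 were above 0 and 5 below in control and likewise in AMH, while in doxorubicin+AMH all 8 were below 0. Without the deep cell Lcn2 was higher in Foxj1-positive than in Foxj1-negative doxorubicin+AMH cells (794 and 653 CPM), and Foxj1-positive Wfdc2 was at 156 CPM. Muc16, a large surface mucin, was at 0.92 and 4.39 CPM in control members and at 202 CPM in Upk3b-positive control cells, which carry the ovarian surface marker uroplakin 3b and which the rule excludes.

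Keratins and junction genes were close in both kinds of control and AMH cell. Krt8 was at 548 and 580 CPM in Foxj1-positive and Foxj1-negative control cells and 591 and 696 CPM in AMH. Cdh1, encoding E-cadherin, was at 382 and 385 CPM in control and 327 and 328 CPM in AMH. Over the 17 of 19 junction and keratin genes that passed the filter, the median log2 ratio was -0.15 in control and -0.24 in AMH. In doxorubicin+AMH it was -1.62, with Krt8 at 321 and 798 CPM and Krt19 at 89.6 and 594 CPM, where the single cell of 193635 UMIs is on the Foxj1-positive side. Without that cell the Foxj1-positive levels there were 573 CPM for Krt8 and 161 CPM for Krt19, and the summed junction and keratin list was at 2678 CPM, beside 4782 CPM in Foxj1-negative cells. Prom1, a protein of membrane protrusions, was at 88.1 and 46.1 CPM in control, 16.5 and 2.95 CPM in doxorubicin+AMH (26.0 CPM in Foxj1-positive cells without that cell) and 106 and 51.1 CPM in AMH.

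**Figure D4:**
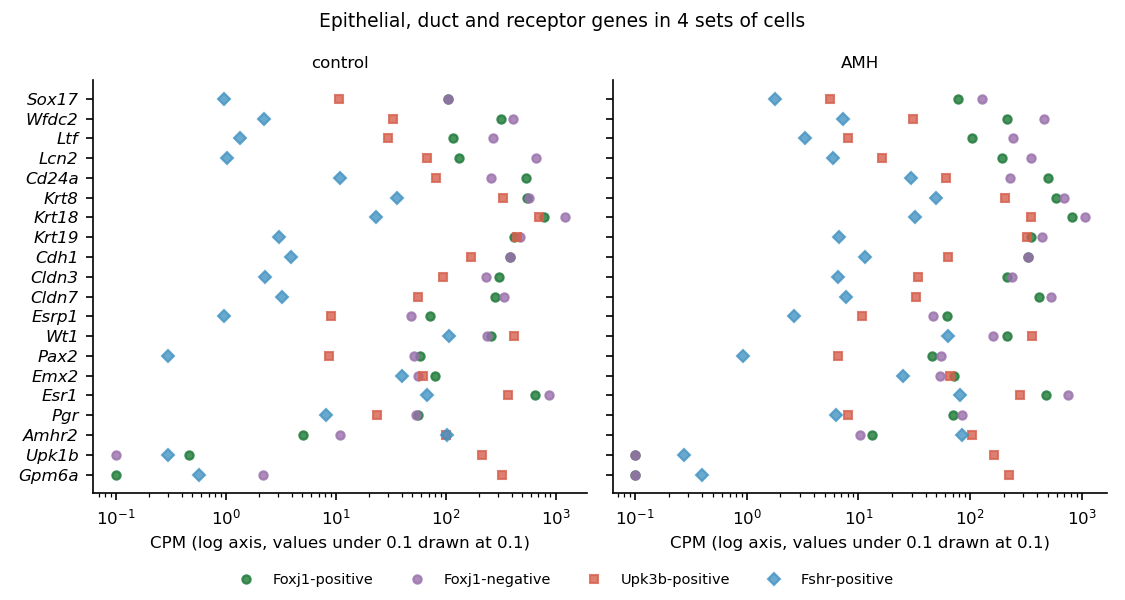
Level in CPM (log axis) of secretory, epithelial, duct and hormone receptor genes in Foxj1-positive and Foxj1-negative members of the control and AMH libraries, with Upk3b-positive and Fshr-positive cells for comparison. Krt8 and Cdh1 lie close in both kinds of cell, and Esr1 is higher in members than in Fshr-positive cells.

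Regulators of the Müllerian duct other than Pax8 were uneven. Wt1, a transcription factor of the genital ridge and its epithelia, was at 257 and 239 CPM in Foxj1-positive and Foxj1-negative control cells, beside 423 CPM in Upk3b-positive and 108 CPM in Fshr-positive control cells. Pax2, a duct factor related to Pax8, was at 58.1 and 52.0 CPM, beside 8.76 and 0.30 CPM. By detection, Wt1 alone was found in 57 control members, Pax2 alone in 8, both in 36 and neither in 20. In AMH these numbers were 70, 20, 31 and 26, and in doxorubicin+AMH 13, 5, 2 and 3. Hoxa9, Hoxa10 and Hoxa11, which mark positions along the duct from oviduct to uterus, had no UMI in control members. Emx2, a transcription factor needed for the urogenital ducts, was at 80.7 and 56.4 CPM in control. Lgr5, a receptor of the Wnt pathway, was at 21.2 and 39.5 CPM in control and at 6.38 and 7.91 CPM in AMH.

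Receptors for ovarian steroids were present in both kinds. Esr1, the estrogen receptor alpha, was at 652 and 869 CPM in Foxj1-positive and Foxj1-negative control cells, 156 and 815 CPM in doxorubicin+AMH and 482 and 751 CPM in AMH. It was at 370 CPM in Upk3b-positive and 67.4 CPM in Fshr-positive control cells, while Esr2, the estrogen receptor beta, was at 14.3 and 15.4 CPM in control members and 385 CPM in Fshr-positive cells. Pgr, the progesterone receptor, was at 55.8 and 54.2 CPM in control and 69.8 and 85.2 CPM in AMH. Control members were thus above Fshr-positive cells for Esr1 and below them for Esr2.

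The receptor for AMH itself was low. Amhr2, the type 2 receptor, was at 5.07 and 11.0 CPM in Foxj1-positive and Foxj1-negative control cells, 42.5 and 17.7 CPM in doxorubicin+AMH and 13.1 and 10.3 CPM in AMH. In control it was at 101 CPM in Upk3b-positive and 103 CPM in Fshr-positive cells. Of the type 1 receptors that it can pair with, Bmpr1b was at 489 and 565 CPM, Bmpr1a at 78.9 and 79.8 CPM and Acvr1 at 35.5 and 15.4 CPM in control members.

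AMH was compared with control over all members, and the same AMH library served in the comparison with doxorubicin+AMH that follows. Few genes differed by at least 2-fold: 22 of 7282 were higher (0.302%) and 39 lower (0.536%), and 10 (0.137%) and 15 (0.206%) did so in both kinds. Of 8 targets of BMP/SMAD signalling, the pathway that AMH uses, 6 passed the filter and all 6 were above 0 over all members, with a median log2 ratio of 0.43 beside -0.05 over all genes. Within Foxj1-positive and within Foxj1-negative cells, 4 of the 6 were above 0 and 2 below. Id1 went from 85.5 CPM in control to 95.4 in AMH, and Id2 from 92.8 to 130 CPM, both encoding inhibitors of helix-loop-helix factors. Id3, of the same family, was at 43.0 and 91.0 CPM, the only one of the 6 near 2-fold (log2 ratio 1.00), and was at 0.64 without the members with 1 Epcam UMI. Id4 was at 30.6 and 42.0 CPM, the inhibitory SMAD Smad7 at 39.3 and 43.4 CPM and the decoy receptor Bambi at 58.0 and 85.9 CPM. The doxorubicin+AMH members were at 286 CPM of Id3, 223 CPM of Id2 and 118 CPM of Id1, but 1 cell held 53.7% of the Id3 UMIs, and Id3 was at 177.5 CPM without the cell over 100000 UMIs. Fshr-positive control cells held Id3 at 412 CPM, and the granulosa list was higher in AMH than in control members (242 and 99.9 CPM) and at 1183 CPM in doxorubicin+AMH members. The part of granulosa RNA in the BMP/SMAD values was not tested. In Foxj1-positive cells the median of AMH over control was 0.18 and in Foxj1-negative cells 0.79, and the difference between them was not tested.

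Marker genes of other ovarian cells were among the differences between AMH and control. Several belong to the marker lists given beside them, so those lists are no separate support. Inha, the inhibin alpha subunit made by granulosa cells, was at 53.2 CPM in control and 146 CPM in AMH, and was found in 67 of 121 and 130 of 147 members. Inha is itself on the granulosa list, of which 6 of 6 genes past the filter were higher in AMH (median log2 ratio 0.86) and whose sum was 99.9 CPM in control and 242 CPM in AMH members, beside 4470 and 5601 CPM in Fshr-positive cells. No gene of the list was at 0 in all members of either library. The part of granulosa RNA in these results was not tested.

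Steroid-making enzymes of theca and granulosa cells were lower in AMH. Cyp11a1, which makes pregnenolone from cholesterol, was at 198 CPM in control and 9.52 CPM in AMH (log2 ratio -3.80), and was found in 58 of 121 and 11 of 147 members. Cyp17a1, which makes androgen precursors, was at 104 and 6.96 CPM (-3.18), and Hsd3b1, which makes progesterone from pregnenolone, at 282 and 49.9 CPM (-2.39). The theca list, which contains all 3, was lower for 5 of 5 genes past the filter, with sums of 635 CPM in control and 80.1 CPM in AMH members, where Insl3 was at 0. The same list went from 906 to 611 CPM in Fshr-positive cells and from 1621 to 487 CPM in Upk3b-positive cells of these libraries. A lower theca level in AMH was thus also measured outside the members, and its part in the member values was not tested. A few cells held much of these UMIs: the top 3 cells had 54.3% of Cyp11a1 in control, and 71.3% of Cyp17a1 in control and 100% in AMH. Without the cells with the highest doublet scores the ratio was -1.99 for Cyp17a1 and -3.14 for Cyp11a1, and that of Hsd3b1 was -1.76 at a mitochondrial limit of 10%.

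The named contractile genes were lower in AMH, and most of their control UMIs lay in single cells. Tagln, encoding transgelin of smooth muscle, was at 293 and 93.1 CPM (log2 ratio -1.61), Myh11 at 99.6 and 30.4 CPM (-1.56) and Tpm2 at 138 and 36.7 CPM (-1.78). The top 3 control cells held 89.5%, 87.5% and 85.6% of these UMIs, and 586 Tagln UMIs came from 1 Foxj1-positive cell. With equal weight for each cell the ratios were -0.57 for Tagln and -0.71 for Myh11. The sum of the smooth muscle list, which contains Tagln and Myh11, was 842 CPM in control and 344 CPM in AMH members, and no gene of the list was at 0 in either. Of its 5 genes past the filter, 4 were below 0, 2 of them at least 2-fold lower, and 1 was above 0 (log2 ratio 0.23). The part of muscle or pericyte RNA was not tested.

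The remaining named differences were of mixed function. Higher in AMH were the heat-shock genes Hspa1b (28.3 and 82.6 CPM) and Hspa1a (35.1 and 69.6 CPM), the matrix Gla protein gene Mgp (38.5 and 93.5 CPM), Greb1l, a gene needed for kidney development (41.0 and 86.4 CPM) and the centriole gene Sclt1 (59.1 and 111 CPM). The log2 ratios of Greb1l, Mgp and Inha were 0.19, 0.84 and 0.96 without the members with 1 Epcam UMI, against 0.99, 1.18 and 1.37 with them. Lower in AMH were Aldh1a1, a retinaldehyde dehydrogenase (158 and 31.8 CPM, log2 ratio -2.15), and Dcpp1, of a family with near-identical copies (501.4 and 93.5 CPM, -2.36). The ratio of Aldh1a1 was -1.42 at a mitochondrial limit of 10% and -1.39 with equal weight for each cell, and 3 control cells held 70.8% of its control UMIs. That of Dcpp1 was -1.44 without the cells with the highest doublet scores. Over the list of dissociation stress genes, all 19 passing, the median was -0.04, close to the -0.05 of all genes.

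**Figure D5:**
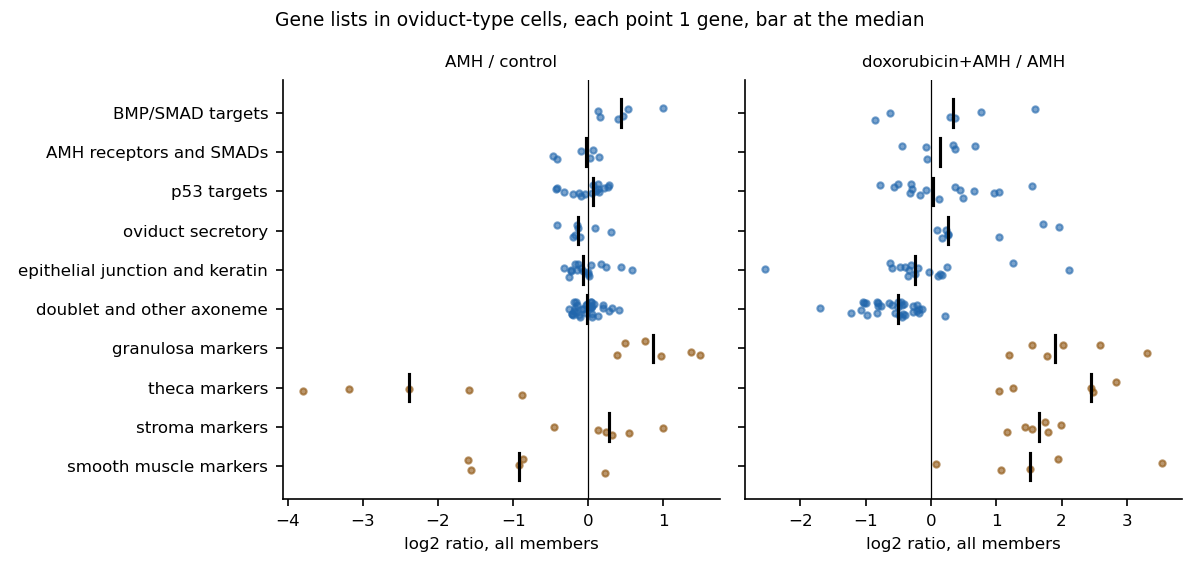
Log2 ratios of AMH over control and of doxorubicin+AMH over AMH for the genes of 10 lists that passed the filter, over all members, with each point 1 gene and the bar at the median of the list. Both comparisons share the AMH library, and the theca list lies below 0 in the first and above 0 in the second.

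With 23 cells, doxorubicin+AMH differed from AMH at more genes: 331 (4.55%) were at least 2-fold higher and 404 (5.55%) lower. Targets of p53, the factor that responds to DNA damage of the kind doxorubicin causes, did not stand apart over all members. Of the 30 listed genes 16 passed the filter, 8 were above 0 and 8 below, and the median log2 ratio was 0.03 beside -0.02 over all genes. It was -0.10 in Foxj1-positive and 0.31 in Foxj1-negative cells. Cdkn1a, encoding the cell-cycle inhibitor p21, was at 72.7 CPM in AMH and 101 CPM in doxorubicin+AMH, and Ccng1, encoding cyclin G1, at 29.5 and 43.3 CPM. Mdm2, encoding the ubiquitin ligase of p53, was at 50.8 and 44.6 CPM, the death effector Bax at 134 and 109 CPM, and Gadd45a, a stress gene, at 152 and 86.6 CPM. Gdf15, a secreted stress factor, was at 31.3 and 101 CPM, but in doxorubicin+AMH came from 4 cells, with 40.3% in 1. Trp53inp1 was at 91.9 and 195 CPM, with 51.0% in 1 cell. Cdkn1a also differed between the kinds without doxorubicin, at 109 and 63.7 CPM in Foxj1-positive and Foxj1-negative control cells and 98.0 and 31.6 CPM in AMH.

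For secretory and cilia genes, the values with and without 1 deep cell differed. All 8 secretory genes past the filter were higher in doxorubicin+AMH than in AMH over all members, with a median of 0.26. In Foxj1-negative cells 8 of 8 were higher (median 0.96), whereas in Foxj1-positive cells 1 was higher and 7 were lower (median -0.69). The summed secretory list in Foxj1-positive cells was at 1172 CPM in doxorubicin+AMH against 1393 CPM in AMH, and turned to 1940 against 1458 CPM without the cells over 100000 UMIs. Wfdc2 was at 306 CPM in AMH and 1210 CPM in doxorubicin+AMH, and at 1622 CPM without the cells over 100000 UMIs. It was found in 14 doxorubicin+AMH members, the highest with 21.8% of its UMIs, and in Foxj1-negative cells its median was 86.5 UMIs against 2 in AMH. Lcn2 was at 255 and 530 CPM. Ovgp1, whose 5 UMIs are a route into the rule and which is not one of the 8, went the other way. It was at 2224 CPM in doxorubicin+AMH members against 6154 CPM in AMH members. Without the cells over 100000 UMIs it was at 2981 against 6029 CPM. Dynein arm genes were lower for 15 of 15 (median -0.66), radial spoke and central pair genes for 15 of 15 (-0.70) and other axoneme genes for 31 of 32 (-0.51), counted over all members. Without the cells over 100000 UMIs, the Foxj1-positive cilia sum was 14841 CPM in doxorubicin+AMH, beside 14345 CPM in AMH. Over all members it was still lower in doxorubicin+AMH without those cells, at 6214 against 9046 CPM.

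The granulosa, theca, stroma and smooth muscle lists were higher in doxorubicin+AMH members than in AMH members, and the erythroid list was lower, at 9.18 against 983 CPM. That AMH value lay in 1 Foxj1-positive cell, with 99.4% of the Hbb-bs UMIs, and in Foxj1-negative cells the list was at 8.86 and 9.12 CPM. The granulosa list was at 1183 against 242 CPM, with 6 of 6 genes past the filter at least 2-fold higher. Few members carried this: 3 of 23 held 81.5% of the Inha UMIs, and the median granulosa level was 1102 CPM in the 6 doxorubicin+AMH members with 1 Epcam UMI and 121 CPM in the rest, beside 608 and 148 CPM in AMH, so among members with 2 or more Epcam UMIs the median was lower in doxorubicin+AMH. The theca list was at 500.96 against 80.1 CPM, the stroma list at 1165 against 380 CPM and the smooth muscle list at 939 against 344 CPM. Without the cells over 100000 UMIs the doxorubicin+AMH sums were 1499 CPM for granulosa, 241 for theca, 176 for stroma and 63.3 for smooth muscle. Those of AMH were 261, 87.7, 405 and 377 CPM, so stroma and smooth muscle turned lower in doxorubicin+AMH, while granulosa and theca were still higher. In Foxj1-negative cells, which do not include the deep cell, the median log2 ratio was 1.72 for granulosa, -0.17 for theca, -1.05 for stroma and -2.60 for smooth muscle genes. Of the 168 Inha UMIs in Foxj1-negative doxorubicin+AMH cells, 147 (87.5%) came from 1 cell, which holds 1 Epcam and 1 Pax8 UMI and is thus at the edge of the rule. Stress genes of dissociation were also higher, 15 of 19 above 0 with a median of 0.49, among them Socs3 at 36.9 and 219 CPM, or 41.2 and 127 CPM without the cells over 100000 UMIs. The part of these other cells and of dissociation in the doxorubicin+AMH values was not tested.

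The single doxorubicin member held cilia and epithelial transcripts together. Of the genes of the rule it held 15 UMIs of Epcam, 9 of Pax8, 10 of Foxj1 and 4 of Ovgp1. Of cilia genes it held 19 UMIs of Ccdc153, 6 of Tmem212 and 3 of Dnah5, and of epithelial genes 57 of Krt8, 24 of Krt18 and 15 of Cdh1. Wt1 had 43 UMIs and Pax2 none. Among p53 targets it held 10 UMIs of Cdkn1a, 3 of Mdm2, 3 of Eda2r and 1 of Ccng1, and none of Bax. The stroma, smooth muscle, leukocyte, oocyte and erythroid lists were at 0, while the surface epithelium list was at 203 CPM, granulosa at 135 CPM, and theca and endothelial at 33.9 CPM each, beside 52.4, 99.9, 635 and 12.7 CPM in control members. The doublet caller marked the cell. A single cell gives no estimate for the doxorubicin group, so these values describe that cell and no expression ratio against it was computed.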

How the data were processed

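The deposited files give UMI counts per gene and cell barcode for 4 libraries of mouse ovary, made with Cell Ranger 7.0.0 as given per the file headers. The submitters' processing notes also list mm10, R 4.2.0 and Seurat 4.1.0. They hold raw counts for 32285 genes, with 138647495 to 178279122 UMIs per library. The members and gene lists were chosen with earlier results of these data known, and the cells were chosen by the counts of the genes named in the rule.

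UMIs were summed over the members of a library, or over its Foxj1-positive or Foxj1-negative members, and expressed as CPM. Ratios were taken as log2(CPM + 5) for genes whose mean level reached 20 CPM, and at least 2-fold is the size called. A ratio against a sum of 0 depends on the 5 CPM added and is no bound. With 1 library per group no p-value was computed. The ratio calculation was tested on simulated data. Intervals are exact Clopper-Pearson for shares and cover counting error only. Genes were named for the Foxj1 split by the 15 highest and 15 lowest ratios closest to 0 over control, doxorubicin+AMH and AMH, with the same sign in each and a mean level reaching 50 CPM, leaving out genes without a symbol of their own (4 and 1). The 8 highest and 8 lowest genes for AMH over control were named by a rule chosen after values were seen. Some genes of the lists and of this rule are not reported here.

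Doublets were kept in all values. Scrublet (scanpy 1.11.5) scores, cut by rank at 0.8% per 1000 cells, marked 17, 1, 4 and 6 members of control, doxorubicin, doxorubicin+AMH and AMH. Its automatic threshold marked 0, 1, 0 and 0, so the ranked cells serve as an alternative. Contrasts with doxorubicin alone, and the genes to be named from them, were planned and not run, because that library holds 1 member. Alternatives covered cell limits, doublets, Epcam and Foxj1 minimums, cell weighting, scaling, the low-count filter and the CPM added. Python 3.11.15, numpy 2.4.6, scipy 1.17.1, pandas 2.3.3 and matplotlib 3.10.9 were used. Promoter sequences are from RefSeq on GRCm38.p6, and gene positions are from GENCODE M21.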

Additional observations from a re-analysis of the deposited data

How the results depend on the processing

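Each group is 1 library pooled from 5 mice, so animals, dissection and treatment cannot be told apart, and the doxorubicin+AMH values rest on 23 cells. No paired analysis was possible because each group has 1 library. Contrasts with the doxorubicin library were not run. Of the summary values under the alternatives, 111 stayed within their limits and 27 did not. The limits were the counting interval for a share and 1.5 times for a count of genes. For a list median they were taken from the ordered ratios of its genes, and for BMP/SMAD from the lowest to the highest gene (0.13 to 1.00). The p53 median of doxorubicin+AMH over AMH, close to 0, changed sign at -0.01 without the cells of the highest Scrublet scores and at -0.03 with median-of-ratios scaling. All 398 values of named genes kept their sign, with 79 outside their interval. That interval leaves out the 5 CPM added to the ratios, so a value can lie outside it without having moved. Leaving out cells over 100000 UMIs and allowing 1 UMI of each exclusion gene were chosen after seeing the data. The cause of a shift was not tested, except that the low-count filter and the CPM added act by construction.

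The share of members moved with the rule: 1.39% in AMH with at least 2 Epcam UMIs, 2.05% in AMH and 1.69% in control with 1 UMI of each exclusion gene allowed, and 0 in doxorubicin without the cells of the highest Scrublet scores. Foxj1-positive cells were 35.4% in AMH at 2 Foxj1 UMIs. With 1 CPM added, the cilia median was 4.71 over the 4 libraries summed, 5.25 in control, 4.39 in AMH and 5.40 in doxorubicin+AMH. With cells weighted equally it was 4.57, 3.15 and 4.54. In doxorubicin+AMH it was also 4.61 without the cells marked by Scrublet, 4.15 with at least 2 Epcam UMIs and 4.42 without cells over 100000 UMIs. The 22 genes higher in AMH than control became 13 with at least 2 Epcam UMIs, 87 with equal weight and 51 with no filter, and the 39 lower became 75 with no filter. The 3 genes lower in Foxj1-positive cells in 3 libraries became 8 at a mitochondrial limit of 10%, 6 with at least 2 Epcam UMIs, 6 at 2 Foxj1 UMIs, 41 with equal weight, 5 with median-of-ratios scaling, 9 with no filter, 8 with 1 CPM added and 5 without cells over 100000 UMIs. The BMP/SMAD median of AMH over control ranged from 0.33 to 0.79 and that p53 median from -0.03 to 0.31. Both upper ends are from Foxj1-negative members only. Foxj1-positive members only were not among the alternatives, and their medians of 0.18 and -0.10 lie below these ranges.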

Other observations

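Several genes were carried by very few cells. Dcpp1, Dcpp2 and Dcpp3, near-identical genes whose separate counts are uncertain, were high in single members: the top 3 cells held 82.4% of Dcpp1 UMIs in control and 78.9% in AMH, and 88.2% and 87.5% of Dcpp3. Dcpp1 had no UMI in the 23 doxorubicin+AMH members. Hemoglobin was at 983 CPM in AMH members over the erythroid list against 14.1 CPM in control, and 99.4% of the Hbb-bs UMIs in AMH came from 1 cell.

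Of 14 matched interferon response genes 9 passed the filter, with a median log2 ratio of AMH over control of 0.01 over all members (5 above 0, 4 below), -0.16 in Foxj1-positive and 0.42 in Foxj1-negative cells. For doxorubicin+AMH over AMH, which shares the AMH library, it was -0.58 over all members, -0.14 in Foxj1-positive cells and -1.48 in Foxj1-negative cells, where 9 of 9 were below 0 with 12 doxorubicin+AMH cells. Foxj1-positive over Foxj1-negative cells gave 0.66 in control, 2.07 in doxorubicin+AMH and -0.13 in AMH. Of 20 cell cycle genes 2 passed: Top2a was at 20.9 CPM in control and 43.6 CPM in AMH, and Pcna, the DNA replication clamp, at 40.7 and 52.9 CPM.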
